A study of Mus musculus with 28 samples.

Results

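The comparison described here asks whether navitoclax changed gene expression in the hippocampus differently in 3xTg-AD mice and in wild-type mice. For each gene the log2 change with navitoclax in WT mice was subtracted from the log2 change with navitoclax in 3xTg mice, and the difference is called the interaction. A positive interaction, called higher, means that the change with navitoclax was more positive in 3xTg than in WT, and a negative one is called lower. The comparison used 16 of the 28 libraries of the series and the 16369 of 24062 genes that passed a filter on low counts, while 7693 genes were removed by it.

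The 4 groups were 3xTg mice given navitoclax (3xTg NAVI), 3xTg mice given the vehicle labelled VehN (3xTg VehN), mice of the strain labelled BL6/129, called WT here, given navitoclax (WT NAVI) and WT mice given a vehicle labelled only Veh (WT Veh), with 4 libraries each. All mice were female, and each library was an mRNA library of the hippocampus. The 3xTg-AD line carries human APP and tau transgenes under the mouse Thy1 promoter, which is active mainly in neurons, along with a knock-in mutation of an endogenous gene. Ages and doses are not in the labels used here, nor whether a library holds 1 animal, so p-values measure the spread between these libraries. The remaining libraries were of mice given dasatinib with quercetin (DQ) or of 3xTg mice given a vehicle labelled VehD. They entered the filter on low counts, the centring of levels per gene and the estimate of that spread, and no group mean of the comparison. VehN was matched to navitoclax, and VehD to DQ, only by the last letter of the label. Whether Veh and VehN are the same vehicle is not in the labels used here. A difference between them cannot be told apart from a navitoclax effect that differs by genotype.

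Navitoclax, also called ABT263, is an inhibitor of the anti-apoptotic proteins BCL-2, BCL-XL and BCL-W. These proteins hold back BAX and BAK, which open the outer mitochondrial membrane and start apoptosis when they are released. Senescent cells often lean on these proteins to survive, and navitoclax is used as a senolytic on that ground, with loss of platelets as its known side effect. In the hippocampus of 3xTg mice it meets tissue with transgenic APP and tau, activated microglia and reactive astrocytes.

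The libraries held 32080861 to 54019519 counts. Levels are given as CPM, the usual library-size scaling of counts, with TMM factors. App, to which the human transgene can add reads, lay between 2410 and 3805 CPM in the 3xTg libraries of both treatments and between 1470 and 1800 CPM in the WT libraries. Thy1, whose promoter drives the transgenes, lay between 1598 and 2463 CPM in 3xTg and between 632 and 782 CPM in WT, so both matched the genotype labels in every library. Markers of hippocampal neurons (Slc17a7, Neurod6, Prox1, Wfs1 and Spink8) summed to 1160 to 1721 CPM. Markers of the choroid plexus (Ttr, Kl, Folr1 and Clic6) summed to 3520, 73.95, 3638 and 131.7 CPM in 3xTg NAVI and to 5701, 3880, 2527 and 2257 CPM in 3xTg VehN. In WT NAVI they summed to 156.1, 3528, 238.4 and 240.4 CPM and in WT Veh to 79.66, 3195, 209.2 and 4207 CPM. All 4 3xTg VehN libraries were high in choroid plexus transcripts, and the other groups held high and low libraries. Markers of the thalamus and habenula (Tcf7l2, Lef1, Slc17a6, Prkcd and Rora) were highest in 3xTg NAVI replicate 1 at 389.6 CPM and in 3xTg VehN replicates 1 and 2 at 680.3 and 499 CPM. Tissue scores (the mean log2 difference of a tissue's genes from the mean of all libraries) were compared by two-sided exact permutation. The change with navitoclax differed between genotypes by -1.501 for choroid plexus (permutation p = 0.325) and -0.256 for thalamus and habenula (permutation p = 0.758). Within each genotype the permutation p was 0.143 or more, and every adjusted p was 0.36 or more. Whether these tissues caused the results was not tested. In bulk tissue, fewer cells of a type and less RNA per cell cannot be told apart.

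The interaction was called in 1331 genes (8.13% of those tested) by edgeR's quasi-likelihood test at a Benjamini-Hochberg adjusted p under 0.05, and 964 were higher (5.89%) and 367 lower (2.24%). The calls sat just inside the threshold, with edgeR adjusted p between 0.0427 and 0.04996, and 5358 genes (32.7%) had an unadjusted p under 0.05. The called genes had a median interaction of 0.53 in size on the log2 scale, and 101 were at least 2-fold. Neither genotype gave a called gene alone. Navitoclax against VehN in 3xTg had 0 calls with edgeR (4759 genes at an unadjusted p under 0.05, 29.1%), although DESeq2 called 2000 and limma-voom with quality weights 826. Navitoclax against vehicle in WT had 0 calls with edgeR (1267 genes, 7.74%, had an unadjusted p under 0.05), and both DESeq2 and limma-voom with quality weights called 3.

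The genes called higher had a median change with navitoclax of 0.39 in 3xTg and -0.21 in WT. For the genes called lower the medians were -0.24 in 3xTg and 0.17 in WT. The change was larger in size in 3xTg for 893 of the 964 genes called higher (92.6%) and for 290 of the 367 called lower (79.0%), against 66.8% of all tested genes. Opposite signs in 3xTg and WT were the rule: they occurred in 963 of the genes called higher, in 367 of those called lower and in 11411 of all 16369 tested genes (69.7%). The counts for called genes are in part fixed by how the interaction is built.

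**Figure D1:**
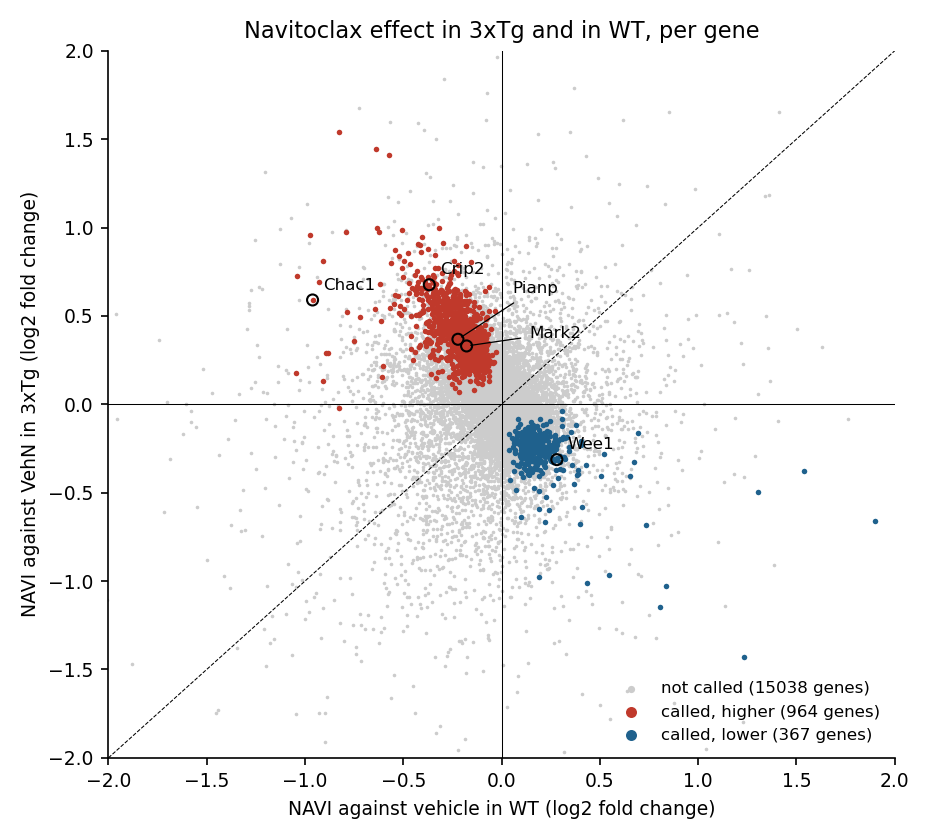
Each point is a tested gene, with its log2 fold change with navitoclax against VehN in 3xTg on the vertical axis and against vehicle in WT on the horizontal axis; the dashed line marks equal changes, and 52 genes lie outside the axes. The 964 genes called higher lie in the upper left part except 1, and the 367 called lower all lie in the lower right part.

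The count rested on single libraries. Each of the 16 libraries was left out in turn. Without 3xTg NAVI replicate 3 or 4, 3xTg VehN replicate 2 or 3, WT NAVI replicate 2 or 4, or WT Veh replicate 1, 0 genes were called, and 1 gene was called without WT NAVI replicate 3 or without WT Veh replicate 4. The count was 1629 without 3xTg NAVI replicate 1, 3615 without 3xTg NAVI replicate 2, 4214 without 3xTg VehN replicate 1 and 1053 without 3xTg VehN replicate 4. It was 1412 without WT NAVI replicate 1, 2799 without WT Veh replicate 2 and 1163 without WT Veh replicate 3. Without the 6 libraries whose thalamus score was high (3 of them among the 16), a setting chosen after seeing the data, 4279 genes were called. These were 2439 higher and 1840 lower of 16545 tested genes. Every call of a gene named here was therefore lost in the 7 cases with 0 calls. In those cases 3825 to 5132 genes had an unadjusted edgeR p under 0.05, against 5358 with all libraries. Their lowest edgeR adjusted p lay between 0.0564 and 0.1251.

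The interaction also followed the GC content of the transcripts. The slope of a library's log2 CPM, centred per gene on all libraries, on GC content (per SD of GC content) was 0.044, -0.032, 0.161 and 0.175 in 3xTg NAVI and 0.068, -0.099, -0.211 and -0.067 in 3xTg VehN. In WT NAVI it was 0.013, -0.018, -0.111 and -0.039, and in WT Veh 0.101, -0.039, 0.012 and 0.153. The groups overlap in both genotypes. The mean slope was 0.164 higher with navitoclax in 3xTg (two-sided exact permutation p = 0.0857, adjusted p = 0.36 over 9 such tests). The mean slope fell by 0.096 in WT (exact permutation p = 0.2, adjusted p = 0.36), and these 2 differences were 0.26 apart (exact permutation p = 0.0139, adjusted p = 0.125).

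**Figure D2:**
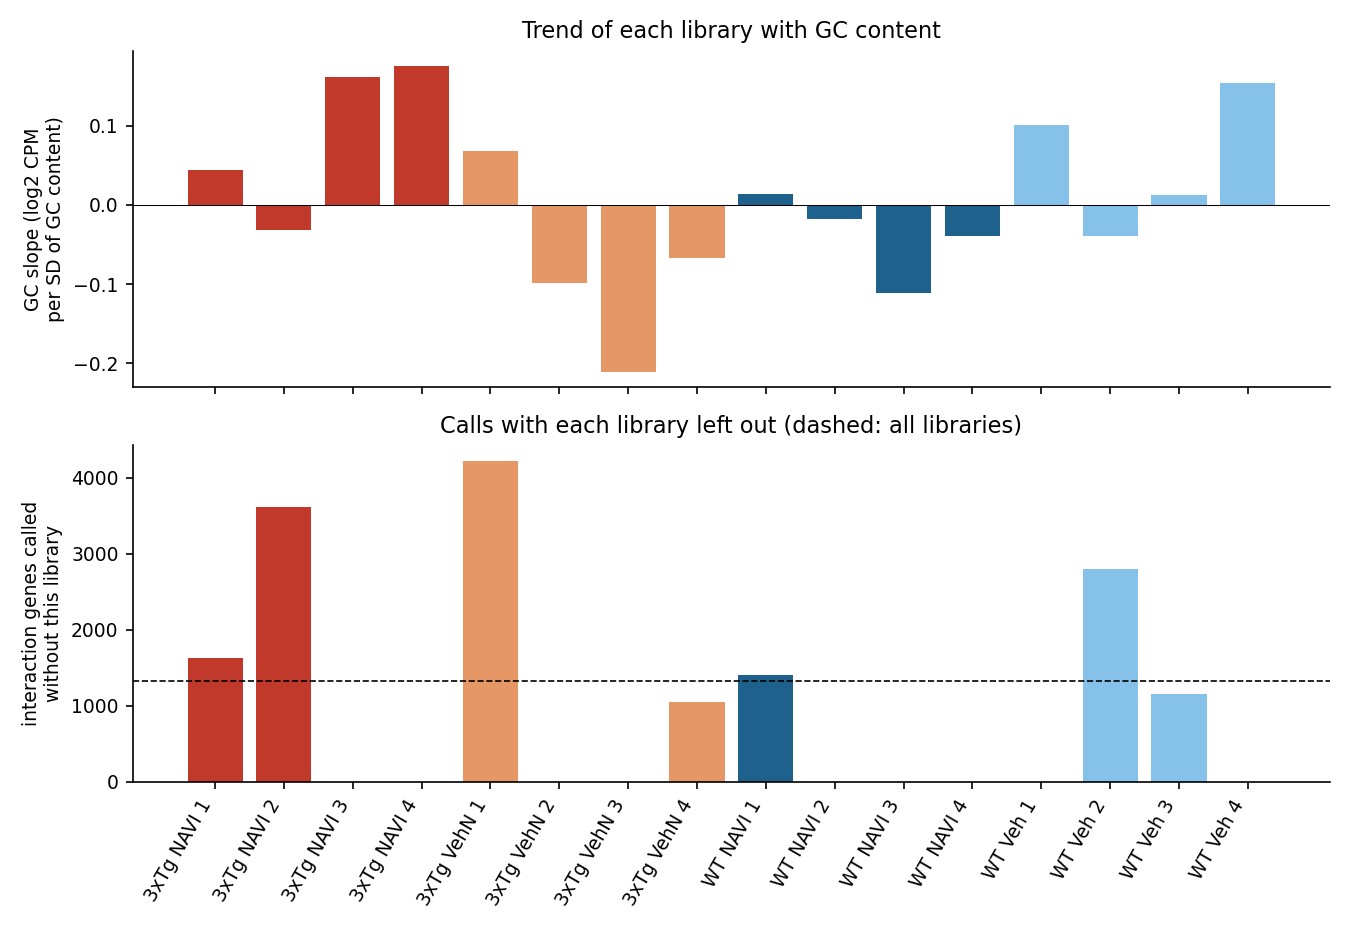
The upper bars give the slope of each of the 16 libraries with transcript GC content (log2 CPM per SD of GC content), and the lower bars the number of genes called in the interaction when that library is left out, with the 1331 calls of all libraries as a dashed line. The 2 libraries with the steepest positive slopes in 3xTg NAVI (0.161 and 0.175) are among those without which 0 genes were called. So are WT NAVI replicates 2 and 4, whose slopes are small (-0.018 and -0.039).

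Genes called higher had a median transcript GC content of 57.2%, genes called lower 43.9% and all tested genes 49.7% (15590 genes with a GC value). In the highest decile of GC content 24.8% of genes were called higher and 0 lower, and in the lowest decile 0.128% were called higher and 6.61% lower. The GC content of the promoter window differed less, with medians of 62.0% for genes called higher, 61.0% for genes called lower and 60% for all tested genes with a RefSeq promoter. When each library's GC trend was removed, 0 genes were called (lowest edgeR adjusted p = 0.0790). The medians then fell in size to 0.23 for the 964 genes (884 with the same sign) and to -0.21 for the 367 genes (364 with the same sign). Over the 28 libraries the slope and the total counts had a Pearson r of -0.459 (permutation p = 0.014) and a Spearman rho of -0.343 (permutation p = 0.074). Within groups the Pearson r was -0.26. The cause of the slopes was not tested.

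**Figure D3:**
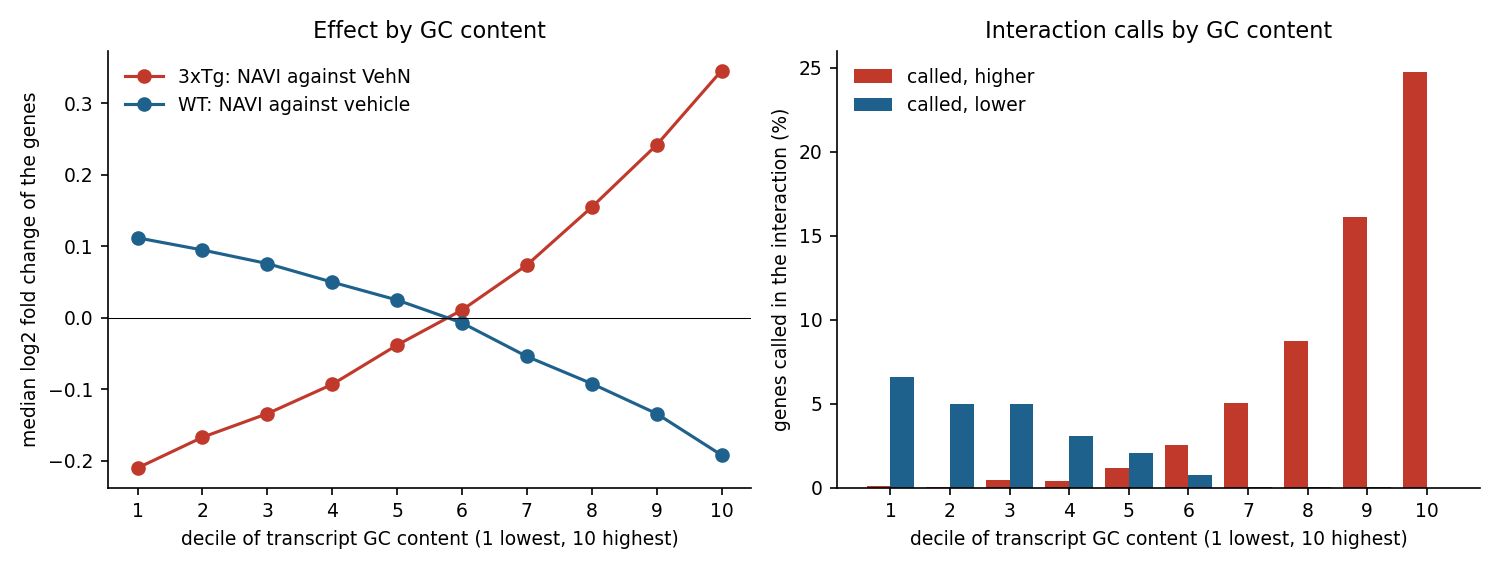
The left plot gives the median log2 fold change with navitoclax in each decile of transcript GC content, in 3xTg and in WT, and the right plot the percent of genes called in the interaction per decile. In the highest decile the medians are 0.35 in 3xTg and -0.19 in WT, and in the lowest they are -0.21 in 3xTg and 0.11 in WT.

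Chac1 had the largest interaction of the 5 genes that mark this comparison. It encodes a glutathione-degrading enzyme that the transcription factor ATF4 induces in the integrated stress response. The gene lies at chr2:119351242-119354326 (mm10). Its level was 4.65, 3.64, 6.18 and 7.04 CPM in 3xTg NAVI, against 3.53, 3.81, 3.60 and 3.32 CPM in 3xTg VehN. The WT NAVI level was 3.30, 2.64, 2.42 and 2.67 CPM, against 5.66, 4.66, 3.19 and 8.02 CPM in WT Veh. In 3xTg, 3 of the navitoclax libraries were above and 1 within the vehicle range, and in WT replicate 3 of the vehicle group lay within the navitoclax range, so the groups overlap in both genotypes. The log2 change was 0.59 in 3xTg and -0.96 in WT, and the interaction was 1.55 (SE 0.304, edgeR adjusted p = 0.0427), a ratio of 2.93 between the 2 fold changes. It stayed between 1.30 and 1.74 when any of the 16 libraries was left out, and with the GC trend removed it was 1.08 (edgeR adjusted p = 0.0791).

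The promoter window of Chac1, from 250 bases before its start to 50 after it, holds the ATF4-type motif TGANGCAA on each strand, and it is shown because this gene leads the stress-response list. The sequence is from RefSeq on the plus strand of GRCm38.p6 at chr2:119350992-119351291, with the matches in capitals.
Chac1 promoter: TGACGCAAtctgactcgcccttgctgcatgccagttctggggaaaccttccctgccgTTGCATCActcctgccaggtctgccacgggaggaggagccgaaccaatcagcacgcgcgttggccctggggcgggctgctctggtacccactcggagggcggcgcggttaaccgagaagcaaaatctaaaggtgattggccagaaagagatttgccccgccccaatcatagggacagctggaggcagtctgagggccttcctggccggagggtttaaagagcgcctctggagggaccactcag
The first match runs from base -250 to -243 of the start on the plus strand, and the second, read as TGATGCAA on the minus strand, from -193 to -186. Over both strands 3.69% of all 32851 RefSeq promoter windows hold the motif, against 3.04% of windows of genes called higher and 4.12% of windows of genes called lower. The E-box CACGTG is in 7.15% of all windows, in 9.65% of those of genes called higher and in 12.4% of those of genes called lower. This E-box has no match in the Chac1 window. All windows include those of genes that were not tested, so the shares of either motif are not like for like.

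Of the 25 tested targets of the integrated stress response, 4 were called higher (16%, against 5.89% of all tested genes) and 0 lower, with a median interaction of 0.33 against -0.02 over all tested genes. Besides Chac1 these were the stress-induced transcription factor Atf5, the large amino acid transporter Slc7a5 and Ddit3, which encodes the pro-apoptotic factor CHOP. Atf5 had 18.8, 17.2, 19.2 and 19.1 CPM in 3xTg NAVI and 17.4, 18.4, 14.6 and 16.4 CPM in 3xTg VehN. It had 10.98, 11.4, 10.4 and 10.7 CPM in WT NAVI and 19.4, 17.8, 9.24 and 19.98 CPM in WT Veh. The 4 WT navitoclax libraries were low and close together, and WT Veh replicate 3 was lower still. The interaction was 0.76 (SE 0.205, edgeR adjusted p = 0.0427) for Atf5, 0.42 (SE 0.120, edgeR adjusted p = 0.0436) for Slc7a5 and 0.43 (SE 0.132, edgeR adjusted p = 0.0478) for Ddit3. With the GC trend removed Atf5 was at 0.16 and Slc7a5 at 0.06, whereas Ddit3 was at 0.61 and the list's median at 0.06. Without the libraries of high thalamus score 10 members were called higher and 1 lower, against 2439 higher and 1840 lower of all 16545 tested genes. The unfolded protein response list had 0 of 19 called higher and 1 lower (5.26%, against 2.24% of all tested genes), the ER co-chaperone Dnajb9 at -0.53 (SE 0.149, edgeR adjusted p = 0.0427). None of the 16 heat shock chaperones was called, with a median of -0.12. Without the libraries of high thalamus score 5 were called lower, against 1840 of all 16545 tested genes. With scores of choroid plexus and thalamus in the model 4 were called lower, against 1369 of all 16369 tested genes.

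**Figure D4:**
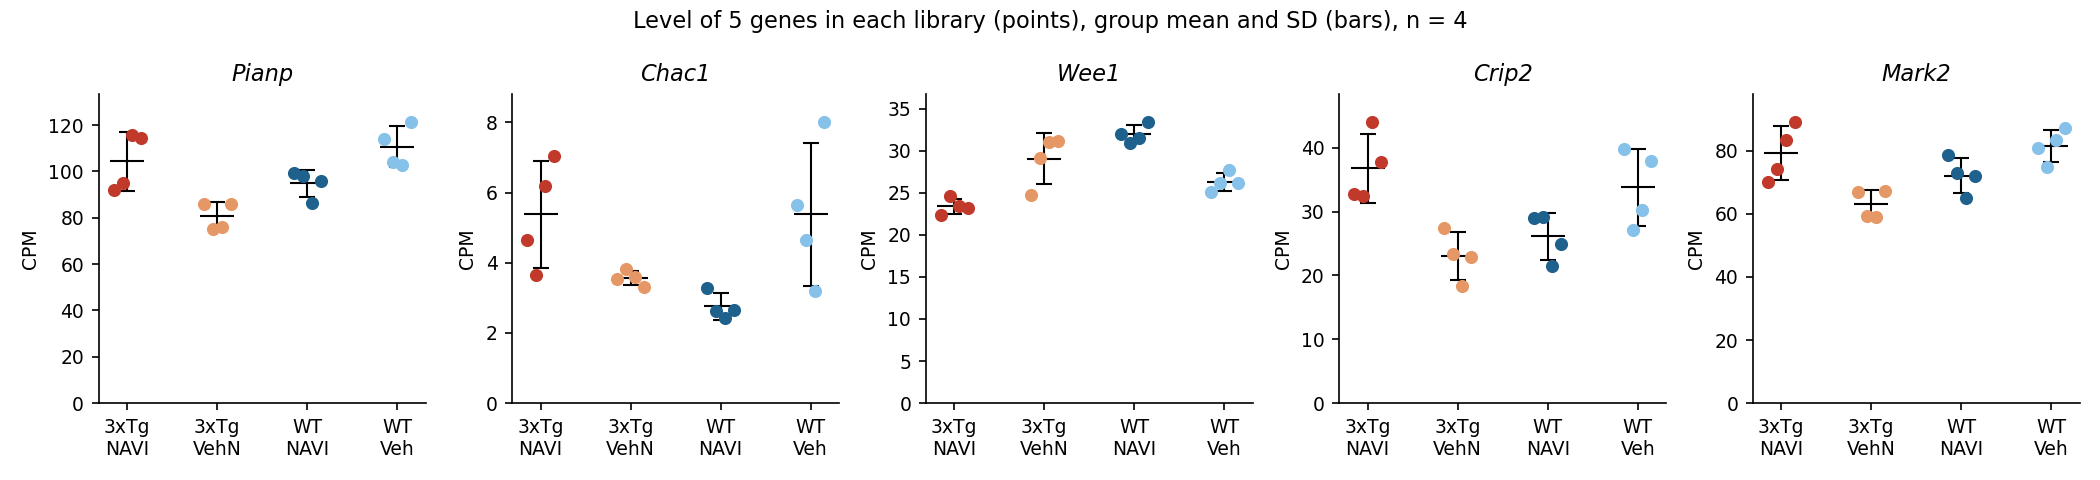
Points give the CPM of Pianp, Chac1, Wee1, Crip2 and Mark2 in each of the 16 libraries, and bars the group mean and SD (n = 4 each). The navitoclax and vehicle groups of Wee1 and of Pianp overlap in neither genotype. Wee1 lies below VehN in 3xTg and above vehicle in WT, and Pianp above VehN in 3xTg and below vehicle in WT. All genes shown had a small p in these same libraries, which favours groups without overlap.

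Wee1 was the gene called lower with the smallest p. It encodes a kinase that holds back entry into mitosis by phosphorylating CDK1, and its transcription is driven by the circadian clock. The gene lies at chr7:110122059-110143299 (mm10). Its level was 22.3, 24.6, 23.4 and 23.2 CPM in 3xTg NAVI, against 24.8, 29.2, 31.1 and 31.2 CPM in 3xTg VehN. The WT NAVI level was 31.97, 30.9, 31.5 and 33.4 CPM, against 25.1, 26.2, 27.7 and 26.1 CPM in WT Veh. All navitoclax libraries were below all VehN libraries in 3xTg, with replicate 2 of NAVI and replicate 1 of VehN nearly level, and all were above all vehicle libraries in WT. The log2 change was -0.31 in 3xTg and 0.28 in WT, and the interaction was -0.59 (SE 0.117, edgeR adjusted p = 0.0427). The transcript has a GC content of 49.8%, and with the GC trend removed the interaction was -0.57 (edgeR adjusted p = 0.0790). Over the 16 left-out libraries it lay between -0.65 and -0.55.

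Among 19 circadian clock genes, 1 was called higher (5.26%, against 5.89% of all tested genes) and 2 lower (10.5%, against 2.24%), with a median of -0.08. Besides Wee1 the called members were the paralogous heme-binding repressors Nr1d1 and Nr1d2 (REV-ERB alpha and beta), which had opposite signs. Nr1d2 was at 129, 143, 112 and 114 CPM in 3xTg NAVI and at 134, 169, 179 and 159 CPM in 3xTg VehN. It was at 145, 156, 159.6 and 132 CPM in WT NAVI and at 121, 131, 130.2 and 98.3 CPM in WT Veh. In WT all navitoclax libraries were above all vehicle libraries, and in 3xTg the groups overlap through 1 library on each side. The interaction of Nr1d2 was -0.66 (SE 0.157, edgeR adjusted p = 0.0427), and that of Nr1d1 was 0.71 (SE 0.204, edgeR adjusted p = 0.0436). Their transcripts differ in GC content, 41.8% for Nr1d2 and 56.8% for Nr1d1, and with the GC trend removed the values were -0.39 and 0.32. Collection times of the tissue are not in the labels used here.

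Of 18 glucocorticoid-responsive genes 3 were called lower (16.7%, against 2.24% of all tested genes) and 0 higher (median -0.10). They were Tsc22d3, which encodes the anti-inflammatory leucine zipper GILZ, at -0.64 (SE 0.167, edgeR adjusted p = 0.0427), the EGF receptor inhibitor Errfi1 at -0.42 (SE 0.109, edgeR adjusted p = 0.0427) and the pyruvate dehydrogenase kinase Pdk4 at -0.78 (SE 0.244, edgeR adjusted p = 0.0480). Tsc22d3 had 79.8, 95.2, 70.1 and 89.2 CPM in 3xTg NAVI and 98.1, 132.5, 99.3 and 102.5 CPM in 3xTg VehN. It had 116, 97.9, 84.4 and 73.9 CPM in WT NAVI and 87.8, 64.1, 74.8 and 81.0 CPM in WT Veh. In 3xTg the navitoclax libraries were all below the VehN libraries, whereas in WT they overlapped with vehicle. VehN and VehD, the vehicles given to 3xTg mice, differed for these genes by a log2 value (VehN minus VehD) of 0.46 in Tsc22d3 (edgeR adjusted p = 0.681), 0.19 in Errfi1 (edgeR adjusted p = 0.92) and 0.65 in Pdk4 (edgeR adjusted p = 0.714). Without the libraries of high thalamus score 2 members were called higher and 1 lower (2439 and 1840 of 16545 tested genes). With the tissue scores in the model 2 were called higher and 4 lower (1725 and 1369 of 16369 tested genes). Over all alternative settings the interaction lay between -0.77 and -0.18 for Tsc22d3 and between -0.97 and -0.14 for Pdk4.

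Synaptic genes held a larger share of calls than the tested genes as a whole: 8 of 32 were called higher (25%, against 5.89%) and 0 lower, with a median interaction of 0.24. Members among those with the smallest p were Dlg4, which encodes the postsynaptic scaffold PSD-95, the vesicle fusion protein Stx1a and the presynaptic adhesion molecule Nrxn2. Shank1 (0.67), Shank2 (0.57), Unc13a (0.38) and Nlgn2 (0.33) were also called. Dlg4 had 472, 469, 550.4 and 641 CPM in 3xTg NAVI, against 442, 373, 353 and 423 CPM in 3xTg VehN. Levels in WT were 489, 465, 415 and 501 CPM in WT NAVI, against 568, 470.4, 502 and 606 CPM in WT Veh. All 3xTg navitoclax libraries were above all VehN libraries, while the WT groups overlapped. The interaction was 0.62 for Dlg4 (SE 0.138), 1.05 for Stx1a (SE 0.251) and 0.69 for Nrxn2 (SE 0.166), each with edgeR adjusted p = 0.0427. With the GC trend removed Dlg4 was at 0.77, but Nrxn2 was at 0.06 and the list's median at 0.06. Without the libraries of high thalamus score 12 members were called higher and 1 lower, against 2439 higher and 1840 lower of all 16545 tested genes.

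Of 20 genes of excitatory neurons and hippocampal subfields, 2 were called higher (10%, against 5.89% of all tested genes) and 0 lower (median 0.15). Grin2b, the GluN2B subunit of the NMDA receptor, had 210.1, 184, 165 and 208 CPM in 3xTg NAVI and 155, 113, 117 and 138 CPM in 3xTg VehN. It had 130.0, 110.1, 126 and 136 CPM in WT NAVI and 201, 139, 143 and 135 CPM in WT Veh. The 3xTg navitoclax libraries were all above the VehN libraries, and WT Veh replicate 1 stood apart from the other WT libraries. The interaction of Grin2b was 0.85 (SE 0.205, edgeR adjusted p = 0.0427) and 1.03 with the GC trend removed, and its transcript has a GC content of 45.7%. Nrgn, the calmodulin-binding protein neurogranin, was at 0.64 (SE 0.195, edgeR adjusted p = 0.0467) and at 0.13 with the GC trend removed. Neither the 14 inhibitory interneuron genes (median -0.03) nor the 25 immediate early genes (median 0.00) held a call, and the nearest was Junb at 1.35 (SE 0.428, edgeR adjusted p = 0.0502). Junb had 13.1, 7.11, 16.8 and 13.3 CPM in 3xTg NAVI and 6.56, 3.86, 3.86 and 5.48 CPM in 3xTg VehN, with no overlap, and it had 6.37, 9.76, 7.56 and 8.73 CPM in WT NAVI and 12.2, 5.43, 6.95 and 7.96 CPM in WT Veh, which overlapped.

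Of 27 microtubule and tau kinases and their partners, 4 were called higher (14.8%, against 5.89% of all tested genes) and 1 lower (3.70%, against 2.24%). Their median of 0.21 was -0.01 with the GC trend removed. Mark2, a kinase that phosphorylates tau and loosens it from microtubules, lies at chr19:7275396-7341860 (mm10). It had 70.2, 74.2, 83.6 and 89.3 CPM in 3xTg NAVI, against 66.8, 59.3, 58.9 and 67.4 CPM in 3xTg VehN. WT libraries had 78.6, 72.8, 65.1 and 71.9 CPM in WT NAVI, against 80.8, 74.97, 83.5 and 87.1 CPM in WT Veh. The 3xTg groups did not overlap, and in WT replicate 1 of NAVI lay among the vehicle libraries. The interaction of Mark2 was 0.51 (SE 0.101, edgeR adjusted p = 0.0427), made of 0.33 in 3xTg and -0.18 in WT, and with the GC trend removed it was 0.09. The tau-tubulin kinases had opposite signs, Ttbk1 at 0.68 and Ttbk2 at -0.36, with transcript GC contents of 56.5% and 42.6%. The MARK-activating kinase Stk11 (LKB1) was at 0.73 and the MAP kinase Mapk3 (ERK1) at 0.41, which turned to -0.01 with the GC trend removed.

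Pianp, which encodes a type I membrane protein that binds the receptor PILR alpha, had the smallest p of all genes called higher. The gene lies at chr6:124996720-125003096 (mm10). It had 91.9, 95.02, 116 and 114 CPM in 3xTg NAVI, against 86.1, 75.2, 76.1 and 86 CPM in 3xTg VehN. In WT NAVI it had 99.2, 97.9, 86.5 and 95.9 CPM, against 114, 104, 103 and 122 CPM in WT Veh. Navitoclax libraries were all above VehN in 3xTg and all below vehicle in WT. The interaction was 0.59 (SE 0.108, edgeR adjusted p = 0.0427), between 0.53 and 0.65 over the left-out libraries. With the GC trend removed it was 0.14 (edgeR adjusted p = 0.472), and the transcript has a GC content of 58.0%.

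Crip2, a LIM domain protein of vascular endothelium and heart, lies at chr12:113140236-113145506 (mm10). It had 32.8, 32.5, 44.1 and 37.8 CPM in 3xTg NAVI, against 27.5, 23.4, 18.3 and 22.95 CPM in 3xTg VehN. In WT NAVI it had 29.0, 29.2, 21.5 and 24.99 CPM, against 39.8, 27.2, 30.3 and 37.9 CPM in WT Veh. The groups were apart in 3xTg and overlapped in WT through vehicle replicate 2. The interaction was 1.04 (SE 0.207, edgeR adjusted p = 0.0427), and 0.47 with the GC trend removed (edgeR adjusted p = 0.0791). Cldn5, the tight junction protein of the blood-brain barrier, was the other of 22 endothelial and pericyte genes called higher, at 1.11 (SE 0.307, edgeR adjusted p = 0.0427). In that list 9.09% were called higher, against 5.89% of all tested genes, and 0 were called lower (median 0.07). Cldn5 had 14.4, 13.5, 14.4 and 15.03 CPM in 3xTg NAVI and 13.7, 13.3, 7.94 and 9.95 CPM in 3xTg VehN, against 12.4, 10.6, 11.3 and 14.8 CPM in WT NAVI and 25.04, 17.1, 15.8 and 24.8 CPM in WT Veh. Its larger change was in WT, where all navitoclax libraries were below all vehicle libraries (log2 -0.75, against 0.36 in 3xTg).

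The highest share of calls was in the genes of cytosolic ribosomal proteins, with 14 of 38 called higher (36.8%, against 5.89% of all tested genes). In that list 1 was called lower (2.63%, against 2.24%), Rpl7 at -0.29, and the median was 0.31. Rplp1, a protein of the ribosomal stalk, had 101, 77.8, 133 and 142 CPM in 3xTg NAVI and 94.4, 61.6, 51.0 and 70.2 CPM in 3xTg VehN. It had 88.9, 75.7, 65.9 and 79.7 CPM in WT NAVI and 115, 80.2, 89.4 and 127 CPM in WT Veh. The groups overlapped in both genotypes. The interaction of Rplp1 was 1.12 (SE 0.277, edgeR adjusted p = 0.0427), and that of Rps28 was 1.09 (SE 0.268, edgeR adjusted p = 0.0427). Rpl37 (0.57) had a smaller value. With the GC trend removed the list's median was 0.20, and Rps28, whose transcript has a GC content of 49.1%, was at 1.14. Ribosomal protein genes have many near-identical pseudogenes, so how reads were divided between copies is uncertain.

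Nuclear genes of the respiratory chain were called in both directions, with a median of 0.00. Of 33 genes 1 was called higher (3.03%, against 5.89% of all tested genes) and 4 lower (12.1%, against 2.24%). The complex I subunit Ndufs7 was at 0.96 (SE 0.295, edgeR adjusted p = 0.0472), while the complex I subunit Ndufs1 was at -0.30 (SE 0.0891, edgeR adjusted p = 0.0449). Cox5a of complex IV was at -0.46, Uqcrc2 of complex III at -0.32 and Atp5c1 of the ATP synthase at -0.27. Ndufs7 has a transcript GC content of 59.6%, and the 4 genes called lower lie between 41.6% and 50.2%.

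Of 23 genes of cholesterol synthesis 5 were called higher (21.7%, against 5.89% of all tested genes) and 0 lower, although the list's median was 0.04 and turned to -0.04 with the tissue scores as covariates. Srebf2, the transcription factor that drives the pathway, had 156, 151, 196 and 204 CPM in 3xTg NAVI and 147, 124, 110.2 and 138 CPM in 3xTg VehN. It had 139, 129.8, 116 and 125 CPM in WT NAVI and 157, 118, 149 and 152 CPM in WT Veh. The 3xTg navitoclax libraries were all above VehN, and the WT groups overlapped. The interaction was 0.62 for Srebf2 (SE 0.154) and 0.81 for mevalonate kinase Mvk (SE 0.224), each with edgeR adjusted p = 0.0427. Mvd, the mevalonate diphosphate decarboxylase, was at 0.94 (SE 0.279, edgeR adjusted p = 0.0445), and Dhcr7 at 0.34. After removal of the GC trend the values were 0.17 for Srebf2, 0.45 for Mvk and 0.46 for Mvd. Of 27 autophagy and lysosome genes 2 were called higher (7.41%, against 5.89% of all tested genes), the acid glucosidase Gaa at 0.88 and the autophagy receptor Sqstm1 at 0.30. Of 18 genes of the NRF2 response 1 was called higher (5.56%), its inhibitor Keap1 at 0.47. After removal of the GC trend Gaa was at 0.35, Sqstm1 at 0.09 and Keap1 at 0.01.

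The transcripts of the proteins that navitoclax binds were not called. Bcl2 was at -0.26 (SE 0.137, edgeR adjusted p = 0.179), Bcl2l1, which encodes BCL-XL, at 0.19 (SE 0.131, edgeR adjusted p = 0.308) and Bcl2l2, which encodes BCL-W, at 0.02 (SE 0.0507, edgeR adjusted p = 0.825). Bcl2 had 25.7, 28.3, 25.5 and 21.4 CPM in 3xTg NAVI, against 27.1, 31.5, 32.7 and 25.6 CPM in 3xTg VehN. WT NAVI libraries had 27.4, 29.1, 28.2 and 22.8 CPM, against 22.9, 31.0, 24.9 and 24.9 CPM in WT Veh. All these groups overlap. Mcl1, which navitoclax does not bind well, was at -0.34 (SE 0.121, edgeR adjusted p = 0.0637), and 0 of the 7 anti-apoptotic members were called (median -0.27). Without the libraries of high thalamus score 1 member was called higher, Bcl2l1 at 0.39 (edgeR adjusted p = 0.042), and 1 lower, and the median was -0.02. In that setting 2439 of 16545 tested genes were called higher and 1840 lower. With the GC trend removed Bcl2l1 turned to -0.13.

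Of 13 pro-apoptotic members 1 was called higher (7.69%, against 5.89% of all tested genes) and 0 lower (median -0.06). Bax had 18.7, 17.0, 23.5 and 25.4 CPM in 3xTg NAVI, against 18.1, 13.7, 12.2 and 16.4 CPM in 3xTg VehN. WT NAVI libraries had 17.9, 17.1, 15.2 and 15.9 CPM, against 21.7, 15.3, 18.5 and 22.1 CPM in WT Veh. The groups overlapped in both genotypes. The interaction was 0.71 (SE 0.202, edgeR adjusted p = 0.0431), and with the GC trend removed it was 0.04 (edgeR adjusted p = 0.898); the transcript has a GC content of 63.5%.

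Of 20 p53 targets 1 was called higher, Bax (5%, against 5.89% of all tested genes), and 2 were called lower (10%, against 2.24%), with a median of -0.24. These were the autophagy and stress protein Trp53inp1 at -0.82 (SE 0.194, edgeR adjusted p = 0.0427) and the p53 ubiquitin ligase Mdm2 at -0.29 (SE 0.0819, edgeR adjusted p = 0.0427). Among 30 cell cycle checkpoint and senescence regulators 1 was called higher (3.33%, against 5.89%), the CDK inhibitor Cdkn2d at 0.41, and 2 lower (6.67%, against 2.24%), Wee1 and Mdm2. After removal of the GC trend Trp53inp1 was at -0.50, Mdm2 at -0.14 and Cdkn2d at 0.07. Cdkn1a, which encodes the senescence-associated CDK inhibitor p21, had 8.74, 14.2, 11.3 and 10.7 CPM in 3xTg NAVI and 12.9, 19.6, 9.98 and 9.76 CPM in 3xTg VehN. It had 13.8, 8.85, 12.1 and 7.996 CPM in WT NAVI and 16.8, 10.02, 10.2 and 12.3 CPM in WT Veh, and all groups overlapped. The interaction of Cdkn1a was -0.01 (SE 0.308, edgeR adjusted p = 0.986), and its sign changed with several settings. Cdkn2a, which encodes p16, was removed by the filter with 0 to 8 counts per library. None of the 30 tested senescence secretory factors was called (median 0.17), and Il6, Tnf, Cxcl2 and Gdf15 were removed by the filter.

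Among microglial and astrocyte genes 1 was called higher and 1 lower, both of the disease-associated microglia list (3.33% each, against 5.89% and 2.24% of all tested genes). The median was 0.28 over 30 disease-associated microglia genes, 0.32 over 16 homeostatic microglia genes and 0.27 over 20 astrocyte genes. Cd68, a lysosomal protein of phagocytes, had 12.8, 13.9, 24.5 and 14.7 CPM in 3xTg NAVI and 14.3, 10.2, 7.79 and 10.2 CPM in 3xTg VehN. It had 8.03, 7.42, 5.95 and 6.38 CPM in WT NAVI and 8.36, 8.24, 7.75 and 9.47 CPM in WT Veh. 3xTg NAVI replicate 3 stood above the rest, and the groups overlapped in both genotypes. The interaction of Cd68 was 0.91 (SE 0.250, edgeR adjusted p = 0.0427) and lay between 0.66 and 1.11 over the left-out libraries. The growth factor Igf1 was at -0.63 (SE 0.149, edgeR adjusted p = 0.0427). Gfap, the astrocyte intermediate filament, was at 0.51 (SE 0.249, edgeR adjusted p = 0.155), with 985, 1142, 1779 and 941 CPM in 3xTg NAVI and 1296, 823, 615 and 816 CPM in 3xTg VehN, against 366, 383, 338 and 369 CPM in WT NAVI and 429, 387, 339.7 and 364 CPM in WT Veh. Over the left-out libraries the interaction of Gfap lay between 0.26 and 0.77, and it was called without 3xTg VehN replicate 1 (edgeR adjusted p = 0.0177). Its genotype difference was larger than any change with navitoclax, and was 1.73 with navitoclax and 1.23 with vehicle (log2, 3xTg minus WT, edgeR adjusted p = 7.61e-07 and 1.47e-04). Without the libraries of high thalamus score 8 disease-associated microglia genes were called higher and 1 lower, 7 homeostatic genes were called higher and 5 astrocyte genes were called higher. In that setting 2439 of 16545 tested genes were called higher and 1840 lower.

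Of 20 oligodendrocyte genes 1 was called higher (5%, against 5.89% of all tested genes), Cspg4 (NG2), a proteoglycan of oligodendrocyte precursors and pericytes. Cspg4 had 13.1, 12.3, 18.04 and 17.6 CPM in 3xTg NAVI and 12.3, 9.87, 7.56 and 9.78 CPM in 3xTg VehN, against 11.5, 11.1, 8.47 and 10.4 CPM in WT NAVI and 16.2, 12.04, 12.3 and 16.9 CPM in WT Veh. The WT groups did not overlap and the 3xTg groups met at the lowest navitoclax library. The interaction was 1.099 (SE 0.231, edgeR adjusted p = 0.0427), and 0.59 with the GC trend removed (edgeR adjusted p = 0.0790). Interferon-stimulated genes had a median of -0.33 with 0 of 29 called. The lists of tissue next to the hippocampus held no call either, with medians of -0.53 for choroid plexus, -0.43 for thalamus and habenula, -0.58 for meninges and 0.19 for cortex and striatum. When scores of choroid plexus and thalamus entered the model 3094 genes were called. Of the 5 tested platelet genes and the 7 tested blood cell genes, 0 were called.

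**Figure D5:**
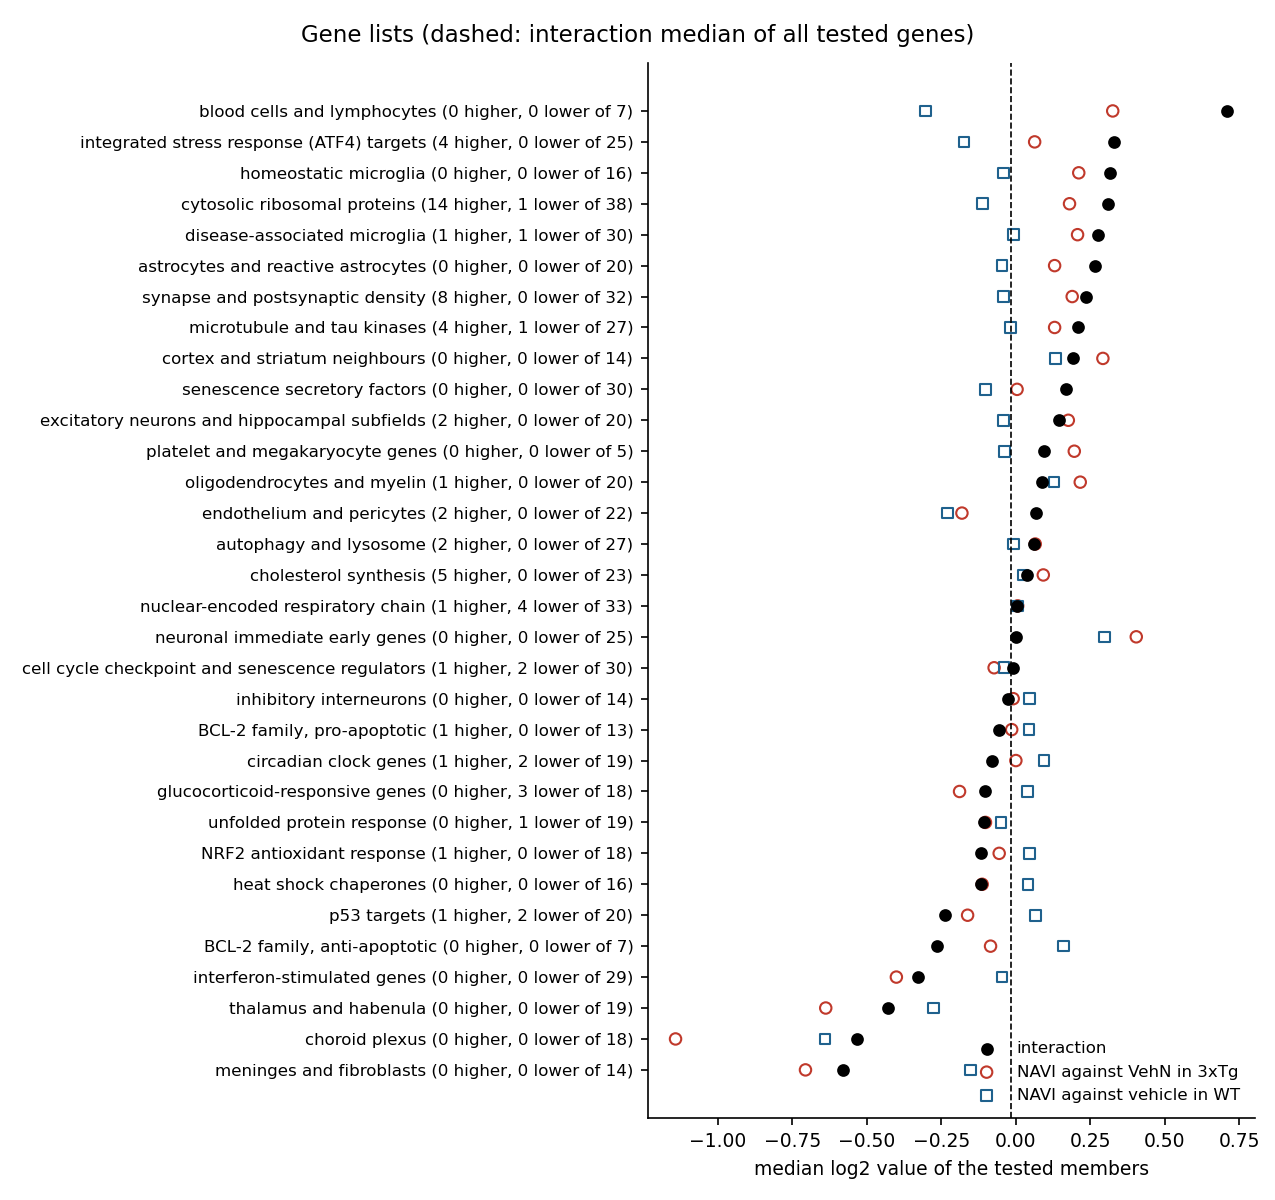
For each gene list the filled point gives the median interaction of its tested members, the open circle the median log2 fold change with navitoclax in 3xTg and the open square that in WT; the numbers called are beside the name. Ribosomal protein, integrated stress response (ATF4) and microglial lists lie above the median of all tested genes (-0.02). The choroid plexus, thalamus and meninges lists lie below it, as do the unfolded protein response, heat shock and NRF2 lists.

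Leaving out genes whose mean log2 CPM was below 0, the largest called interactions were in genes of low level. C1qtnf4, a secreted C1q and TNF related protein, was at 1.98 (SE 0.538), with 3.25, 2.37, 5.44 and 7.25 CPM in 3xTg NAVI and 2.87, 1.498, 1.03 and 1.49 CPM in 3xTg VehN. It had 2.86, 2.80, 1.39 and 1.98 CPM in WT NAVI and 4.79, 1.53, 3.01 and 4.11 CPM in WT Veh, and the groups overlapped in both genotypes. The fibrillarin-like Fbll1 was at 1.63 (SE 0.362), the prohormone convertase inhibitor Pcsk1n at 1.60 (SE 0.399) and the linker histone H1fx at 1.49 (SE 0.387), and C1qtnf4 and these 3 had edgeR adjusted p = 0.0427. After removal of the GC trend they were at 1.04 for C1qtnf4, 0.96 for Fbll1, 1.17 for Pcsk1n and 0.57 for H1fx. In the other direction the ubiquitin ligase Rnf125 was at -1.08 (SE 0.278), the secreted matrix protein Cthrc1 at -1.06 (SE 0.295), Gm3604 at -1.0035 (SE 0.264), the spliceosome protein Snrpf at -0.99 (SE 0.231) and the zinc finger gene Zfp97 at -0.91 (SE 0.264). Zfp97 belongs to a large family of similar zinc finger genes, so how its reads were assigned is uncertain. The edgeR adjusted p was 0.0436 for Zfp97 and 0.0427 for the other 4.

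The other genes called higher with the smallest p were Dlk2 (1.22), an EGF-like membrane protein, the nuclear receptor coactivator Pelp1 (0.52), the diphosphoinositol phosphatase Nudt3 (0.67), the synaptic adhesion molecules Ntng2 (1.08) and Lrfn2 (0.75), and Ppp1r26 (0.64), a regulatory subunit of protein phosphatase. The navitoclax libraries of 3xTg were all above VehN for each of these except Ppp1r26. Those called lower with the smallest p after Wee1 were the valine-catabolism enzyme Hibadh (-0.41), the ubiquitin ligase Wwp1 (-0.55), the Golgi protein Golph3 (-0.42), the mitochondrial processing peptidase Pmpcb (-0.36), Utp6 (-0.33), the augmin subunit Haus3 (-0.70), the kinase Pkn2 (-0.48), Fbxo33 (-0.48) and the zinc transporter Slc30a5 (-0.40). Haus3 had 6.24, 6.33, 5.23 and 4.72 CPM in 3xTg NAVI and 7.09, 7.90, 8.19 and 6.87 CPM in 3xTg VehN, against 7.79, 7.38, 7.74 and 7.78 CPM in WT NAVI and 5.68, 6.82, 6.73 and 5.94 CPM in WT Veh. Its groups did not overlap in either genotype. The same held for Hibadh and Wwp1, also below VehN in 3xTg and above vehicle in WT. All genes of this paragraph were picked by a small p in the same libraries, which favours groups without overlap. The same holds for the genes that mark the comparison and for many of the list members described above. The share of all tested genes without overlap was not counted. Removing the GC trend gave -0.11 for Hibadh, -0.25 for Wwp1 and -0.37 for Haus3.

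The same libraries can be read as a genotype difference under each treatment. With navitoclax 979 genes differed between 3xTg and WT (5.98%), 539 higher (3.29%) and 440 lower (2.69%) in 3xTg, and with vehicle 1712 genes did (10.5%), 765 higher (4.67%) and 947 lower (5.79%). At an unadjusted p under 0.05 there were 4477 genes (27.4%) with navitoclax and 4976 genes (30.4%) with vehicle. Chac1 was at 0.96 with navitoclax (edgeR adjusted p = 0.00932) and -0.59 with vehicle (edgeR adjusted p = 0.0714), and Wee1 at -0.45 with navitoclax (edgeR adjusted p = 0.00178) and 0.14 with vehicle (edgeR adjusted p = 0.238). Pianp was at 0.14 with navitoclax (edgeR adjusted p = 0.241) and -0.45 with vehicle (edgeR adjusted p = 8.20e-04), and Mark2 at 0.14 with navitoclax (edgeR adjusted p = 0.210) and -0.37 with vehicle (edgeR adjusted p = 0.00280). Crip2 was at 0.49 with navitoclax (edgeR adjusted p = 0.0459) and -0.55 with vehicle (edgeR adjusted p = 0.0187). Chac1 and Wee1 thus passed with navitoclax, Pianp and Mark2 with vehicle, and Crip2 with both in opposite directions.

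The same contrast for DQ, which shares the WT Veh libraries, held 0 calls with edgeR (467 genes, 2.85%, had an unadjusted p under 0.05), and DESeq2 called 1. Its value was 0.30 for Pianp, 0.41 for Chac1, -0.18 for Wee1, 0.37 for Crip2 and 0.13 for Mark2. VehN against VehD also held 0 calls with edgeR (807 genes, 4.93%, had an unadjusted p under 0.05), and DESeq2 called 2. The 964 genes called higher had a median of -0.10 in VehN minus VehD, and the 367 called lower 0.05. With VehD in place of VehN as the vehicle of 3xTg mice 0 genes were called in the interaction with edgeR, and with the mean of both vehicles 1743.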

How the data were processed

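The deposited table held whole-number read counts per gene for 24062 genes in 28 hippocampal mRNA libraries, with 4 in each of 7 groups. STAR, Subread, featureCounts and the build mm10 are named in the submitters' processing notes, per the labels, without roles or versions, and the kit was stranded, but the strand setting and the annotation of counting are stated in none of the labels used here. All columns were matched to a library by name, with 0 unmatched.

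Genes were kept by edgeR's filterByExpr over the 7 groups (16369 kept, 7693 removed), scaled by TMM and fitted with edgeR 4.0.16 (R 4.3.3) in a quasi-likelihood model with a mean for each of the 7 groups over all 28 libraries. Genes with a Benjamini-Hochberg adjusted p under 0.05 over all tested genes were called. Alternatives used DESeq2 1.42.0 and limma 3.58.1 (voom with quality weights). The model was tested on simulated data. GC content came from the longest GENCODE M21 transcript of a gene (15590 genes). The GC trend of each library was removed with a lowess curve of span 0.3 (log2 CPM, prior count 2), then passed to edgeR as offsets. Gene positions and promoters are RefSeq on GRCm38.p6, which is mm10. Exact permutation tests went through every assignment of libraries to navitoclax or vehicle within each genotype. Correlations of the slope with total counts used scipy 1.17.1.

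Genes named were the 10 of smallest p in each direction and the 5 of largest change whose mean log2 CPM reached 0, up to 4 members of each list, Pianp, Chac1, Wee1, Crip2, Mark2, App, Thy1, Bcl2, Bcl2l1, Bcl2l2, Cdkn1a and Gfap. Further called members of a list were named after their values were seen. The members, lists and rules were chosen with earlier results of these data known. Samples were grouped by genotype and treatment labels. Totals of 32080861 to 54019519 counts per library set the precision, and libraries of the same group differed by more than counting error in every pair (lowest chi-square per degree of freedom 12.8). Replicate numbers are shared between groups, but the labels do not say that they pair mice, so the main fit used no block. Some items are not reported here.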

Additional observations from a re-analysis of the deposited data

Results flagged for a closer look

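For each gene below the change with navitoclax differed between 3xTg and WT by the test of that difference itself (edgeR adjusted p under 0.05), and the values are interactions on the log2 scale. Among genes that mark the comparison or had the smallest p, the values were 0.59 for Pianp, 1.55 for Chac1, -0.59 for Wee1, 1.04 for Crip2, 0.51 for Mark2, 1.22 for Dlk2, 0.52 for Pelp1, 0.67 for Nudt3, 1.08 for Ntng2, 0.75 for Lrfn2 and 0.64 for Ppp1r26. On the lower side they were -0.41 for Hibadh, -0.55 for Wwp1, -0.42 for Golph3, -0.36 for Pmpcb, -0.33 for Utp6, -0.70 for Haus3, -0.48 for Pkn2, -0.48 for Fbxo33 and -0.40 for Slc30a5. Besides Chac1, the largest were 1.98 for C1qtnf4, 1.63 for Fbll1, 1.60 for Pcsk1n and 1.49 for H1fx, and in the other direction -1.08 for Rnf125, -1.06 for Cthrc1, -1.0 for Gm3604, -0.99 for Snrpf and -0.91 for Zfp97.

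Stress and clock genes gave 0.76 for Atf5, 0.42 for Slc7a5, 0.43 for Ddit3, -0.53 for Dnajb9, -0.66 for Nr1d2, 0.71 for Nr1d1, -0.64 for Tsc22d3, -0.42 for Errfi1 and -0.78 for Pdk4. Apoptosis, cell cycle and glial genes gave 0.71 for Bax, -0.82 for Trp53inp1, -0.29 for Mdm2, 0.41 for Cdkn2d, -0.63 for Igf1, 0.91 for Cd68, 1.1 for Cspg4 and 1.11 for Cldn5. Neuronal genes and kinases gave 0.85 for Grin2b, 0.64 for Nrgn, 0.62 for Dlg4, 1.05 for Stx1a, 0.69 for Nrxn2, 0.68 for Ttbk1, 0.73 for Stk11 and 0.41 for Mapk3. Ribosomal and respiratory genes gave 0.57 for Rpl37, 1.09 for Rps28, 1.12 for Rplp1, -0.46 for Cox5a, -0.30 for Ndufs1, -0.27 for Atp5c1 and 0.96 for Ndufs7. Sterol and lysosome genes and Keap1 gave 0.62 for Srebf2, 0.81 for Mvk, 0.94 for Mvd, 0.88 for Gaa, 0.30 for Sqstm1 and 0.47 for Keap1. These 67 calls share the dependence on libraries and GC content given in the report.

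A library stood far from the other 3 of its group in 15 of 320 groups of values, and chance gives about 1 in 20 groups. In 3xTg NAVI these were Lrfn2 at 29.69 CPM in replicate 4, Rnf125 at 2.024 CPM and Pdk4 at 49.62 CPM in replicate 2, Cd68 at 24.5 CPM in replicate 3 and the thalamus score at 1.199 in replicate 1 (the mean log2 difference of its markers from the mean of all libraries). In 3xTg VehN they were Tsc22d3 at 132.5 CPM in replicate 2 and the total of 52320840 counts in replicate 3. In WT NAVI they were Haus3 at 7.378 CPM and the choroid plexus score at 1.577 in replicate 2, and Bcl2l2 at 200.2 CPM and Gaa at 175.7 CPM in replicate 3. In WT Veh they were Rnf125 at 1.772 CPM and Grin2b at 201 CPM in replicate 1, Stx1a at 70.63 CPM in replicate 2 and Trp53inp1 at 14.07 CPM in replicate 4.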

How the results depend on the processing

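The number of genes called in the interaction (1331) changed with most choices. It stayed within 1.5 times with RLE scaling (1362), upper-quartile scaling (1440), robust estimation (1312), a minimum mean of 50 counts (1811) and the mean of both 3xTg vehicles (1743). It was 3004 with DESeq2, 2007 with limma-voom with quality weights (a change of both test and library weights, as in all limma-voom counts here), 3094 with tissue scores as covariates and 4279 without the libraries of high thalamus score, and it was 0 with no low count filter, with only the 16 libraries fitted, with VehD as the 3xTg vehicle and with the GC trend removed. Leaving out 1 library at a time gave 0 to 4214. The cause of these shifts was not tested.

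Navitoclax in 3xTg had 2000 calls with DESeq2, 826 with limma-voom, 1541 against the mean of both vehicles, 2481 without the libraries of high thalamus score and 0 to 3578 with 1 library left out. Navitoclax in WT had 3 with DESeq2, 3 with limma-voom and 0 to 1 with 1 library left out. Against WT under navitoclax 3xTg had 1641 with DESeq2, 1603 with limma-voom, 484 with only the 16 libraries and 375 to 1920 with 1 library left out, and under vehicle 685 with only the 16 libraries, 623 with VehD, 840 without the libraries of high thalamus score and 548 to 3198 with 1 library left out. The DQ interaction had 1 call with DESeq2, with the covariates and without the libraries of high thalamus score, and VehN against VehD had 2 with DESeq2 and up to 1 with 1 library left out.

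With the replicate number as a block (replicate block) 3315 genes were called in the interaction, 2317 for navitoclax in 3xTg, 1884 for genotype under navitoclax and 2781 under vehicle, and with the GC trend also removed 370, 75 and 1658 in the first 3 of these. The 24 same-numbered pairs of libraries correlated at -0.284 to 0.308 in their deviations (median 0.026, 11 over 0.1). The 72 pairs of different number correlated at -0.406 to 0.39 (median -0.028, 22 over 0.1). Of 16 libraries 3 matched best with their own number. Whether the numbers pair the samples cannot be told from these values.

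Of the 67 called genes described, 63 were called by DESeq2, 61 by limma-voom and 16 with the GC trend removed and the block. Signs turned for Mapk3 (-0.009 with the GC trend removed, -0.014 with the block as well) and, among genes not called, for Bcl2l1 (-0.127 and -0.1245 in the same settings) and Bcl2l2 (-0.1406 and -0.1416 there, -0.0076 with the mean of vehicles, -0.034 with VehD, -0.0033 without the libraries of high thalamus score and -0.0017 to 0.0422 with 1 library left out). Cdkn1a turned to 0.0039 with the filter at 50 counts, 0.0072 with the block, 0.1838 with the mean of vehicles, 0.3783 with VehD, 0.5008 without the libraries of high thalamus score and lay between -0.1832 and 0.2452 with 1 library left out.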

Other observations

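With the GC trend removed the genes of smallest p were partly others than those described, although none passed the threshold (edgeR adjusted p = 0.079 each). These were named after their values were seen. The neuronal repressor Scrt2 was at -0.72 (-0.09 before removal), the potassium channel subunit Kcnab3 at -0.98 (-0.70), the neurofilament subunit Nefm at -0.86 (-0.44) and the prefoldin subunit Pfdn2 at 0.48 (0.37).

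Transcripts of B cells stood out in 1 library. Ms4a1 (CD20) had 409 counts in WT Veh replicate 1, and the next of the 28 libraries, WT NAVI replicate 3, had 22. Cd79a had 263 counts in WT Veh replicate 1 and 25 in the next library.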
